A study of Mus musculus with 3 samples.

Results

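Hi-C domains of the mouse limb bud were examined around 6 genes that encode homeodomain transcription factors of limb patterning: Meis1, Meis2, Prrx1, Lmx1b, Alx4 and Dlx5. For each gene a given position in the mm9 genome was looked up in the authors' table of chromatin domains. The domain holding that position was taken as the gene's domain, together with 1 domain on each side, and where no domain held it the gap was taken with the domains on both of its sides. The rule takes domains by position and uses no measured value, although the genes themselves were chosen with earlier results of these data known. This gave 17 of the 4124 domains in the table, of which 5 held a position and 12 were flanks, and 1 gap. The 6 loci lie on chromosomes 1, 2, 6 and 11, with 3 of them on chromosome 2, and none shared a domain with another.

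The tissue was fore- and hindlimb buds of wild-type embryos at stage E11.5, pooled before Hi-C, a method that ligates DNA fragments lying close together in the nucleus. There were 3 libraries, and the labels call them technical replicates of this pool, which held 8 embryos according to the protocol and 10 according to the design text. There was 1 group, with no treatment and no mutant. The cell type label names G4 embryonic stem cells beside a source of limb bud. The source was followed here, and a table of domains holds no marker that could check it. The authors give 1 value per domain for all libraries together, so no value has an error between replicates, the number of contacts behind it is unknown, and no test between loci was made.

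Homeodomain factors bind DNA through a helical domain of the same fold and set the identity of cells along the axes of the limb. Meis1 and Meis2, TALE homeodomain factors that bind DNA with Pbx partners, mark the proximal part of the bud nearest the trunk. Lmx1b, a LIM homeodomain factor, is required for dorsal identity, and Alx4, a paired-type factor, restrains Shh expression in the anterior margin. Prrx1 is a marker of limb mesenchyme, and Dlx5 acts with its neighbour Dlx6 in the apical ectodermal ridge and distal limb. Genes of this kind are often controlled by enhancers far from the gene, and a chromatin domain is a stretch within which contacts are more frequent than across its edges. An architectural stripe is a line of raised contact that runs from an anchor at one edge of a domain, and it is usually ascribed to loop extrusion by cohesin halted at bound CTCF.

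The domains bear on where these genes sit relative to edges, so the sequence just before the start of a gene is shown for 3 members. Meis2 was picked because its position lay beside a tuned edge, Lmx1b because no domain held it, and Prrx1 because it held a motif match. The sequences are those of RefSeq for GRCm38.p6, which is another build than that of the domains, so these coordinates cannot be set against the domain coordinates. All 3 genes lie on the minus strand, and each sequence is the 250 bases before the gene start, printed 5′ to 3′ with motif matches in capitals. They are chr2:116064620-116064869 for Meis2, chr2:33641099-33641348 for Lmx1b and chr1:163313651-163313900 for Prrx1.
Meis2: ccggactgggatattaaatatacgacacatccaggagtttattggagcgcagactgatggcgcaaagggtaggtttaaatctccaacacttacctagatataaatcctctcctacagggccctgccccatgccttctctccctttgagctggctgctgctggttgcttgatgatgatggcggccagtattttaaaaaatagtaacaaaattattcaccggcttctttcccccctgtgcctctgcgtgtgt
Lmx1b: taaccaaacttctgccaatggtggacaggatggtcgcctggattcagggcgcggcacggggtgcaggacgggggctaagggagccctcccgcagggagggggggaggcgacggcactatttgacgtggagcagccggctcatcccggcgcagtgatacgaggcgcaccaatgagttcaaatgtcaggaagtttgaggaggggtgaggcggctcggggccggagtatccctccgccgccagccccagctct
Prrx1: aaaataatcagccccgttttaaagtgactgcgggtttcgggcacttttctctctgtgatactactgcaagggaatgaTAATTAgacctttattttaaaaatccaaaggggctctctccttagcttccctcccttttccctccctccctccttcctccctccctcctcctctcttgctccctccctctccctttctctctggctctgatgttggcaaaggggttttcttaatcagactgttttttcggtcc

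A CTCF, a TALE and a homeodomain motif were searched on both strands in these 250 bases, in 4 of the 6 members, all but Alx4 and Dlx5. The CTCF core, spelled GGNGGCAG, was found in 0 of the 4 and in 9.93% of the 32851 promoters in the RefSeq table, which lists several for some genes. The TALE site TGACAG, the letters that Meis proteins prefer, was found in 0 of the 4 and in 15.9% of all. The homeodomain site TAATTA, which paired-type and LIM homeodomain proteins bind, was found in Prrx1, starting 173 bases before the gene start, and in 4.84% of all promoters. No other match overlapped it. A match describes the sequence and shows no binding. The G and C content was 65.2% before Lmx1b, 59.6% before Meis1 and 47.6% before both Meis2 and Prrx1, against a median of 52.4% over all promoters.

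None of the 5 domains that held a gene was in the stripe class, whereas 6 of the 12 flanking domains were. Class 1, read here as the stripe class, holds the domains with a random forest probability of 0.5 or more, and class 0 holds the rest. Of all domains, 35.1% were in class 1, against 0 of 5 gene domains, 50% of the flanks and 35.3% of the 17 domains together. Among domains within 20% of the length of each gene domain, the class 1 share ran from 28.3% at Meis1 to 39.0% at Alx4. It was 30.7% at Dlx5, 31.2% at Prrx1 and 34.9% at Meis2. Taking 3 counts as the limit that a count of 0 allows gives a share of up to 60% for 0 of 5. This is a rough rule for larger numbers and is too wide for 5 domains. With so few domains, the gene domains cannot be set apart from the table by this count. The probabilities of the gene domains were 0.34 at Dlx5, 0.32 at Meis1, 0.14 at Meis2, 0.09 at Alx4 and 0.08 at Prrx1. All 5 lay below the median of 0.35 over all domains. Class 0 goes no higher than 0.49, however, and its median of 0.14 equalled that of the 5 gene domains. Of the 17 domains, 2 had a probability between 0.4 and 0.6, around the threshold of 0.5. These were the right flank of Meis2, at 0.46, and the right flank of Prrx1, at 0.57. Left and right here mean lower and higher coordinates, whatever the strand of the gene.

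**Figure D1:**
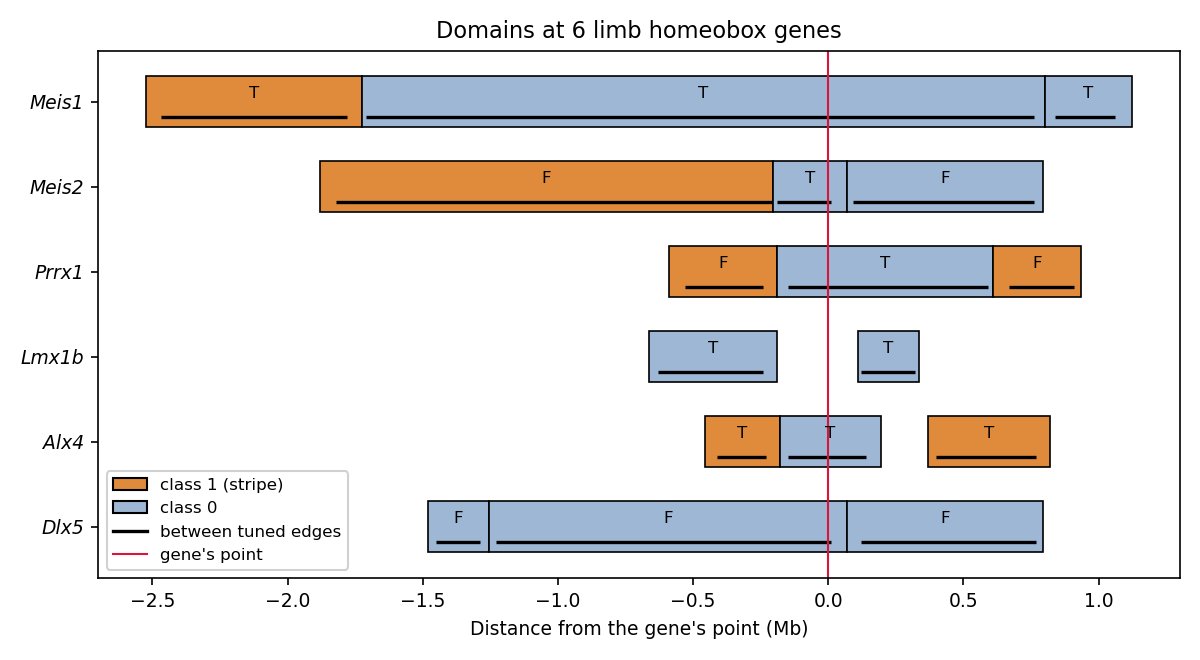
Domains at the 6 loci, drawn to scale as distance in Mb from the position given for each gene (red line). Boxes are domains from the authors' table, orange for class 1 and blue for class 0, T and F give the direction TRUE or FALSE, and black bars run between the tuned edges; the 5 boxes crossed by the red line are blue, and at Lmx1b the line crosses the 300 kb gap.

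The loci fell into 3 arrangements. At Prrx1 and Alx4 a class 0 domain with the gene lay between 2 class 1 flanks. At Meis1 and Meis2 the left flank was class 1 and the right flank class 0. At Lmx1b and Dlx5 neither flank was class 1. Over the whole table, a class 0 domain had 2 class 1 neighbours in 11.2% of 2653 cases, 1 in 46.4% and 0 in 42.4%. A domain counts here as a neighbour whether or not a gap lies between.

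The domain of Meis1 was among the longest of the genome and had a low imbalance score. It spanned 17175001 to 19700000 on chromosome 11 (mm9), a length of 2525 kb, which was longer than 98.5% of domains and ranked 60 of 4124. Its imbalance score, a value named so in the authors' table and whose formula no source used here gives, was 0.0347, above that of 6.09% of domains. Of the 62 domains at least this long, 5 including that of Meis1 had an imbalance this low or lower, and the median of the 62 was 0.281. The cosine score, another value per domain with no stated formula, was 0.693, above that of 58.1% of all domains but of 88.3% of the 60 domains within 20% of its length. Direction was TRUE, and no source used here says which side of a domain TRUE or FALSE names.

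The position of Meis1 was far from both edges, at 1725 kb from the left and 800 kb from the right. It therefore stayed in this domain when it was moved by 100 kb to either side. The 2 protein-coding genes before Meis1 in the GRCm38.p6 gene order are C1d and Etaa1, and the 2 after it are Spred2, an inhibitor of Ras signalling, and Actr2, a subunit of the Arp2/3 actin complex. Which of these share its domain was not tested, because the gene table is of another build.

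The left flank of Meis1 differed from the gene domain in class and in imbalance. It spanned 16375001 to 17175000, a length of 800 kb, with a probability of 1.00 and direction TRUE. Its imbalance was 1.44, higher than in 98.0% of domains and 81st of 4122 from the top. The step of 1.40 in imbalance across the shared boundary was larger than at 98.3% of the 4101 pairs of neighbouring domains. The right flank, 19700001 to 20025000, was 325 kb long and class 0, with a probability of 0.09 and an imbalance of 0.395, and a gap of 75 kb followed it. Its tuned end lay 65 kb inside the domain, a distance that 169 domains of the table reached or passed.

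The domain of Meis2, the paralogue of Meis1, was short. It spanned 115675001 to 115950000 on chromosome 2, a length of 275 kb, which was longer than 18.5% of domains. The Meis1 domain was thus 9.18 times as long. The imbalance at Meis2 was 0.214, above that of 36.6% of domains, the imbalance difference score 0.0841, above 32.9%, and the cosine score 0.597, above 40.4%. None of these lay near an extreme. Direction was TRUE, as at Meis1.

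The position of Meis2 lay close to the right edge of its domain. It was 205 kb from the left edge and 70 kb from the right, and 10 kb from the tuned right edge. Among all positions on a 10 kb grid in domains, 26.8% lie 70 kb or less from an edge and 9.94% lie 10 kb or less from a tuned edge. Moving the position by 100 kb to the right placed it in the right flank, while moves of 25 and 50 kb to either side and of 100 kb to the left did not change its domain.

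The long domain at the Meis2 locus was the left flank. It spanned 114000001 to 115675000, a length of 1675 kb, longer than 96.6% of domains, with a probability of 1.00 and direction FALSE. Its imbalance was 0.736, above that of 84.0% of all domains and of 93.5% of the 123 domains within 20% of its length. Of the 140 domains at least this long, 26.4% were class 1, against 35.1% of all domains. Its tuned start lay 60 kb inside the domain and its tuned end 5 kb inside, so that the tuned right edge almost met the Meis2 domain. The right flank, 115950001 to 116675000, was 725 kb long with an imbalance of 0.117 and direction FALSE.

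Both Meis loci thus had a class 1 flank of probability 1.00 on the left, but with opposite directions and with the long domain on different members. Of all domains, 92.5% had a probability below 1.00, and the right flank of Alx4 reached this value too. The gene order is also alike on one side. After Meis2 come Tmco5 and then Spred1, the paralogue of the Spred2 that follows Meis1. Before Meis2 lie Dph6, an enzyme of diphthamide synthesis, and BC052040.

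Prrx1 lay in a long domain with a low imbalance score, between 2 class 1 flanks. The domain spanned 165050001 to 165850000 on chromosome 1, a length of 800 kb, longer than 85.8% of domains. Its imbalance was 0.0523, above that of 8.88% of domains, and its cosine score was 0.820, above that of 85.0%. Among the 465 domains within 20% of its length, these values were above 9.25% and 85.2%. The position of Prrx1 was 190 kb from the left edge and 610 kb from the right.

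The flanks of Prrx1 had direction FALSE, whereas the gene domain had TRUE. The left flank, 164650001 to 165050000, was 400 kb long with a probability of 0.99 and an imbalance of 0.702. The right flank, 165850001 to 166175000, was 325 kb long with a probability of 0.57 and an imbalance of 0.514. Imbalance was thus higher by 0.650 on the left and by 0.462 on the right than in the gene domain, and 82.4% and 69.8% of neighbouring pairs differed by less. Mroh9 precedes Prrx1 in the gene order, and Gorab, a Golgi protein, and Mettl11b follow it.

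Alx4 lay in a domain of ordinary length beside a domain with one of the highest imbalance scores of the table. Its domain spanned 93300001 to 93675000 on chromosome 2, a length of 375 kb, longer than 42.0% of domains. The position of Alx4 was near the middle, 180 kb from the left edge and 195 kb from the right. The imbalance was 0.327, above that of 51.2% of domains, the imbalance difference 0.256, above 74.2%, and the cosine score 0.823, above 85.5%.

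The right flank of Alx4 spanned 93850001 to 94300000, a length of 450 kb, and was separated from the gene domain by a gap of 175 kb. Its imbalance of 2.43 ranked 7 among 4122 domains and 2 on chromosome 2, with a probability of 1.00. Its cosine score of 0.370 was low, above that of 11.6% of domains. The step in imbalance from the gene domain, 2.11, was larger than in 99.7% of neighbouring pairs. The imbalance difference score of 0.399 stood out less, above 89.0% of domains. The left flank, 93025001 to 93300000, was 275 kb long with a probability of 0.72 and an imbalance of 0.579. All 3 domains had direction TRUE. Tspan18 and Cd82, which encode tetraspanins, precede Alx4 in the gene order, and Ext2, an enzyme of heparan sulphate synthesis, and Accs follow it.

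**Figure D2:**
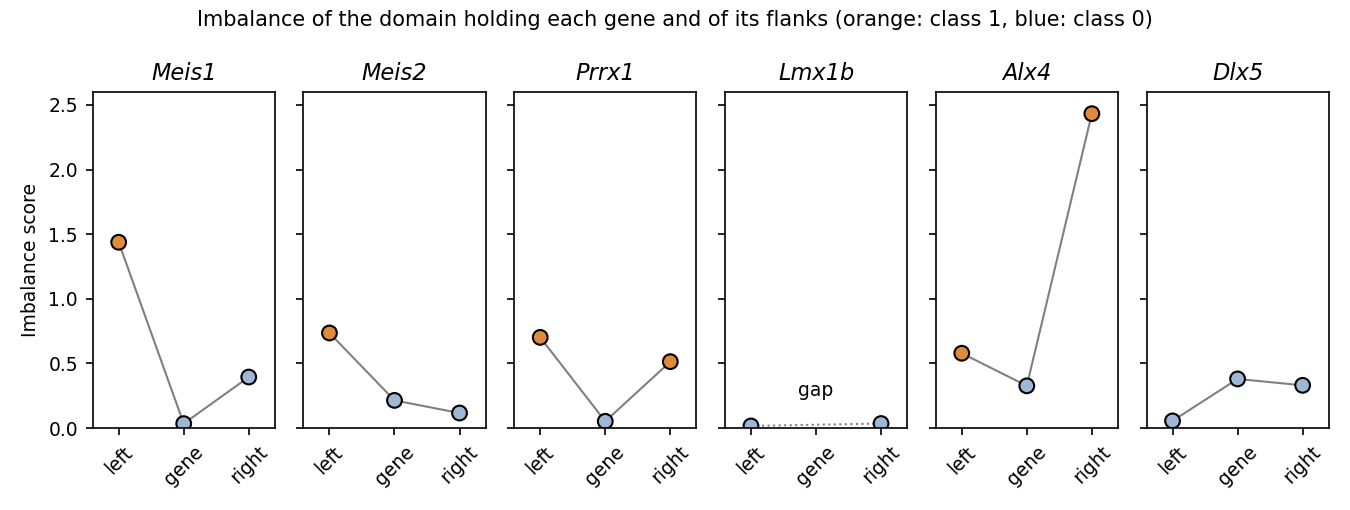
Imbalance score (vertical axis, no unit) of the left flank, the domain holding the gene and the right flank at each locus, orange for class 1 and blue for class 0. At Meis1, Prrx1 and Alx4 the gene domain has the lowest of the 3 values, at Dlx5 the highest, and at Lmx1b, where no domain held the gene, both flanks lie at 0.0353 or below.

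Dlx5 lay near the right end of a long class 0 domain. The domain spanned 5575001 to 6900000 on chromosome 6, a length of 1325 kb, longer than 94.7% of domains. The position of Dlx5 was 1255 kb from the left edge, 70 kb from the right edge and 10 kb from the tuned right edge, which are the same distances to the right as at Meis2. As at Meis2, a move of 100 kb to the right placed it in the right flank. Both domains had their tuned end 60 kb inside, which 12.4% of all domains reached or passed. Dlx6, the paralogue of Dlx5, and Sem1, a proteasome subunit, precede Dlx5 in the gene order, and Sdhaf3 and Tac1 follow it.

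Imbalance at Dlx5 was the highest of the 5 gene domains, at 0.380, above that of 57.3% of all domains. It was below 0.429, at which class 1 begins apart from 92 class 1 domains with scores under 0.2. The imbalance difference score of 0.333 was above that of 84.1% of domains. Within class 0 alone, imbalance and imbalance difference at Dlx5 were above 84.9% and 99.1% of domains. The left flank, 5350001 to 5575000, was 225 kb long, with an imbalance of 0.0558, and the right flank, 6900001 to 7625000, was 725 kb long, with an imbalance of 0.331. Their probabilities were 0.39 and 0.29. All 3 domains were class 0 and had direction FALSE. Of all runs of 3 neighbouring domains, 27.5% were class 0 throughout.

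Lmx1b lay outside every domain. Its position fell in a gap from 33300001 to 33600000 on chromosome 2, 190 kb from the left side and 110 kb from the right, so that moves of up to 100 kb kept it there. The gap was 300 kb long, longer than 83.2% of the 1021 gaps between domains, whose median was 125 kb, and it ranked 12 among the 76 gaps of chromosome 2. Gaps made up 8.36% of the sequence spanned by domains and gaps. No source used here says why this stretch was assigned to no domain.

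Both flanks of Lmx1b were class 0 and had low imbalance scores. The left flank, 32825001 to 33300000, was 475 kb long, with a probability of 0.01 and an imbalance of 0.0167, above that of 3.25% of domains. The right flank, 33600001 to 33825000, was 225 kb long, with a probability of 0.16 and an imbalance of 0.0353, above 6.19%. Their cosine scores were high, at 0.825 and 0.785, above 85.9% and 77.0% of domains. Both had direction TRUE. The left flank was itself isolated, since a gap of 1000 kb preceded it, the 18th in length of the table and 2nd on chromosome 2. A gap on both sides was found for 7.57% of domains, and 2 class 0 flanks for 36.2% of gaps. In the gene order Zbtb34 and Zbtb43, zinc finger proteins, precede Lmx1b, and Mvb12b, a subunit of the ESCRT-I complex, and Pbx3, a TALE homeodomain gene of the family that partners Meis proteins, follow it.

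**Figure D3:**
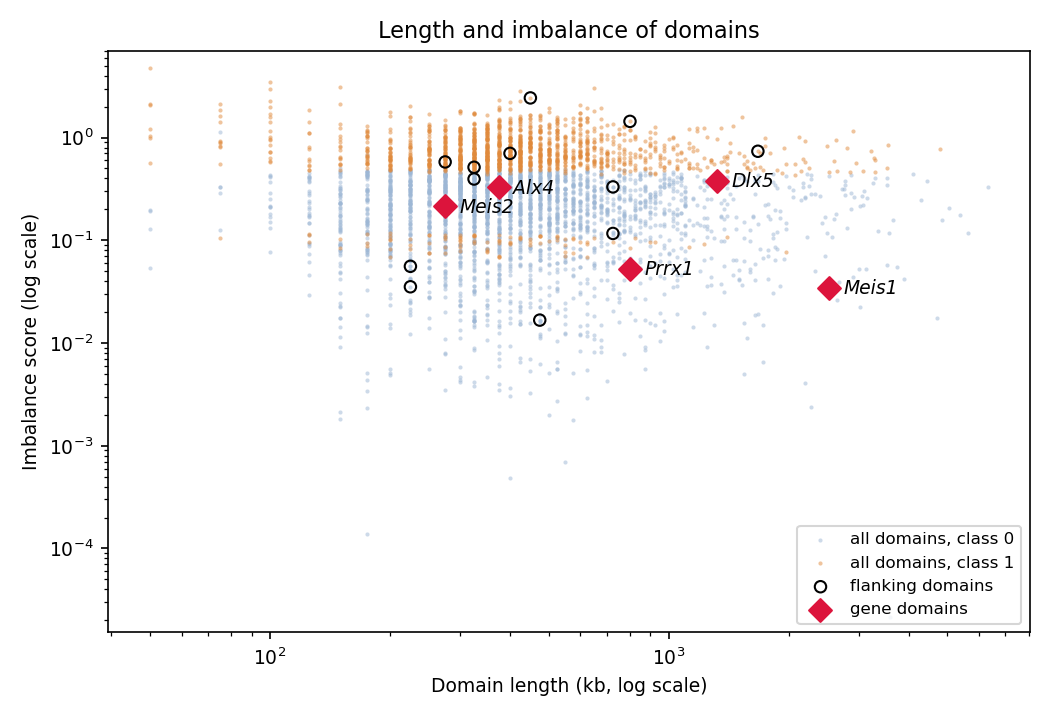
Length (horizontal, kb) against imbalance score (vertical), both on log scales, for the 4118 domains with a finite score above 0 (the other 6 are not drawn), orange for class 1 and blue for class 0. Red diamonds are the 5 gene domains and open circles the 12 flanks; Meis1 is the diamond farthest right and lowest, at 2525 kb and 0.0347, and the circle nearest the top is the right flank of Alx4 at 2.43.

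Set side by side, the gene domains shared their class and differed in length and imbalance. Their lengths ran from 275 kb at Meis2 over 375 kb at Alx4, 800 kb at Prrx1 and 1325 kb at Dlx5 to 2525 kb at Meis1. The median of 800 kb compares with 400 kb over all domains, and 3 of the 5 were longer than 400 kb. Looking up a position meets long domains more often than short ones, whatever the gene. No reference weighted by length was used here, so neither this comparison nor the length percents can be read as a trait of the genes. The median of 800 kb also rests on 5 values and was 587.5 kb without Meis1 or without Dlx5. The flanks had a median of 425 kb, with 6 of 12 above the median of all domains.

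Imbalance split the gene domains into a pair of low values, at Meis1 and Prrx1, and 3 values between 0.214 and 0.380. The median of the 5 was 0.214, against 0.317 over all domains and 0.203 over the 2674 class 0 domains with a finite score. Over all 17 domains, 5 lay in the lowest 10% by imbalance: those of Meis1 and Prrx1, both flanks of Lmx1b and the left flank of Dlx5. All 5 were class 0, a class with lower imbalance than the whole table. Within class 0 they were above 9.39% of domains at Meis1 and 13.7% at Prrx1. The left and right flanks of Lmx1b were above 5.01% and 9.54%, and the left flank of Dlx5 above 14.5%. In the highest 10% of all domains by imbalance there were 2, the left flank of Meis1 and the right flank of Alx4. Cosine scores of the gene domains were between 0.597 and 0.823, and 4 of the 5 exceeded the median of 0.652 over all domains. The median over class 0 domains was higher, at 0.695. Prrx1 and Alx4 exceeded it, whereas Meis1, Dlx5 and Meis2 did not.

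**Figure D4:**
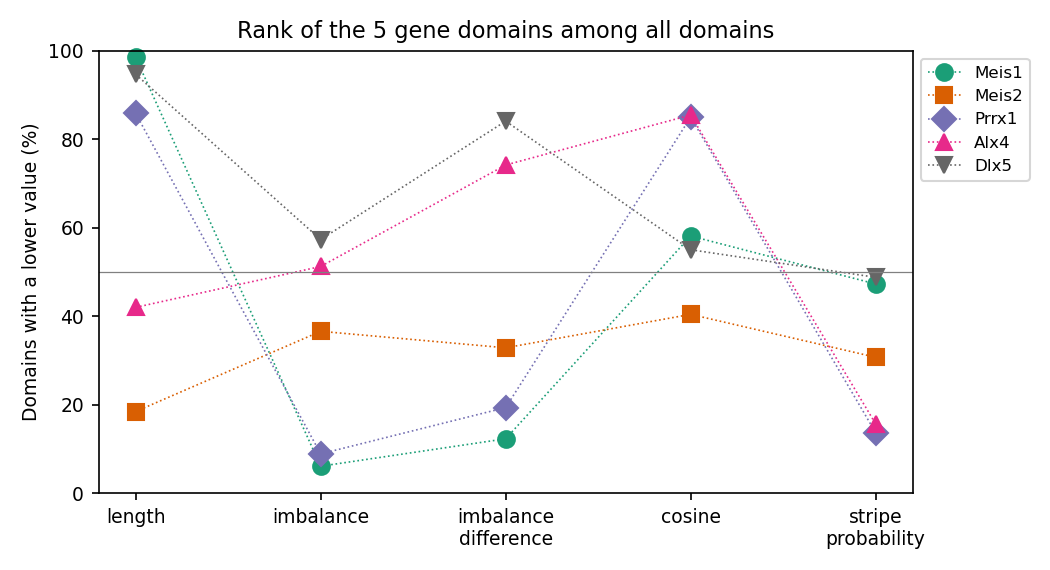
Percent of all domains with a lower value (vertical axis) for length, imbalance, imbalance difference, cosine and stripe probability of the 5 gene domains. Dotted lines join the values of one gene and the grey line marks the median; Meis1 falls from 98.5% in length to 6.09% in imbalance, and all 5 lie below the line in probability.

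Direction was TRUE in 4 of the 5 gene domains, with Dlx5 the exception, in 6 of the 12 flanks and in 49.2% of all domains. The 6 class 1 flanks held 3 of each direction. At 3 of the 5 loci with 3 domains, Meis1, Alx4 and Dlx5, a single direction ran through all 3, as in 23.8% of all such runs.

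Tuned edges lay inside the domain on both sides in all 17 domains, and in 79.9% of the table. The tuned start was between 10 and 60 kb inside and the tuned end between 5 and 65 kb inside. In 4 of the 5 gene domains the end had moved farther in than the start, as in 46.8% of all domains, and the exception was Prrx1, whose start had moved by 40 kb and whose end by 20 kb. By tuned edges the gene domains measured 2470 kb at Meis1, 1240 kb at Dlx5, 740 kb at Prrx1, 290 kb at Alx4 and 200 kb at Meis2. That order is the same as by domain edges, and each position stayed between the tuned edges of its domain. At Lmx1b the stretch between the tuned edges of the flanks was 360 kb. Of the 17 domains, 7 had a gap on at least one side, or 41.2%, against 41.9% of all domains.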

How the data were processed

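Hi-C contacts of 3 libraries of wild-type limb buds were summarised by the authors in 1 table of domains. Reads were processed with BWA and Juicer on build mm9, per the submitters' processing notes, with no versions in the sources used here. The name of the deposited table gives TopDom as the source of domains, a quantile threshold of 0.98 and a random forest threshold of 0.5. The deposited values of a domain are, per the file headers, a probability (a fraction), 3 scores (imbalance, imbalance difference and cosine), a class and a direction. Domain edges lie on a 25 kb grid and tuned edges on a 10 kb grid. No source used here says whether libraries were pooled before domains were called.

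Positions of the 6 genes were given with their names and not checked against an mm9 annotation. Starts are written counting from 1. For each domain the percent of domains with a lower value was computed with Python 3.11.15 and pandas 2.3.3. Each domain counted once in these percents, whatever its length. The 2 domains without a finite imbalance were left out of its ranks and those of cosine and probability. The locating and ranking steps were tested on simulated data. The genes to name were the 6 members and the 2 nearest protein-coding genes on each side in GRCm38.p6, of which 1 is not reported here. The members and lists were chosen with earlier results of these data known. Alternatives were tuned edges, other reference sets (the chromosome, the class, a length within 20%), probability thresholds, moved positions and each locus left out. Homeodomain sequences and a list of further limb homeobox genes in mm9 were not analysed here.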

Additional observations from a re-analysis of the deposited data

How the results depend on the processing

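No paired analysis was possible because the only table holds a single group, and no library could be left out, since values per library were not used here. The median percent of shorter domains over the 5 gene domains was 85.8%, against 84.3% within chromosomes and 84.4% within class 0. The median percent below in imbalance, 36.6%, was 34.4% among domains of similar length. The median percent below in cosine, 58.1%, was 84.8% among domains of similar length. That change came from Meis1, where 58.1% became 88.3% among 60 domains, whereas Meis2 went from 40.4% to 38.7%, Prrx1 from 85.0% to 85.2%, Alx4 from 85.5% to 84.8% and Dlx5 from 55.0% to 57.8%. The median length of 800 kb was 740 kb by tuned edges, 587.5 kb without Meis1 or without Dlx5, 850 kb without Prrx1 and 1062.5 kb without Meis2 or without Alx4. The gene domains in class 1 numbered 0 at probabilities of 0.4, 0.6, 0.75 and 0.9. This outcome was fixed, since their highest probability, 0.34 at Dlx5, lies below all of these thresholds. The 6 class 1 members became 7 at 0.4 (chosen after seeing the data), 5 at 0.6, 4 at 0.75 and at 0.9, and 5 where flanks had to share a boundary. Moving the positions by up to 50 kb changed no assignment by domain edges, and moving them 100 kb to the right changed those of Meis2 and Dlx5. These 2 positions lay 10 kb from the tuned right edge, so a move of 25 kb to the right already passes that edge. The depth behind every value is unknown.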
